A study of Mus musculus with 28 samples.

Results

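The 38 genes described here are fibroblast and non-collagen matrix genes of the mouse heart: surface receptors and transcription factors of cardiac fibroblasts, and the secreted proteins, other than collagens, that fill the space between the muscle cells. They were taken by name from a table of 45513 genes, each name matched 1 entry, and all 38 passed the filter on low counts, so they are 38 of the 24273 genes tested. The libraries came from ventricular myocardium of male C57BL/6 mice, adult when killed, whose vessels had been flushed with phosphate-buffered saline. At 6 weeks of age the mice had either a staged removal of about 5/6 of the kidney mass (5/6 nephrectomy, called CKD for chronic kidney disease) or a sham operation. All mice, controls included, ate a diet with 1% hydroxyproline, a precursor from which the body makes oxalate, and 0.5% calcium. On day 7 each mouse received by mouth a single dose of Oxalobacter formigenes (Oxf), a gut bacterium that feeds on oxalate, or the culture medium alone (vehicle). Hence sham-vehicle (10 libraries), CKD-vehicle (6), sham-Oxf (5) and CKD-Oxf (7) share the strain, sex, diet and gavage volume, and differ in surgery and in the bacterium. The design set 10 mice per group, and 28 libraries are in the table, each from a mouse with its own number.

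Cardiac fibroblasts lay down and repair the interstitial matrix. Collagen fibrils give that matrix its strength, small leucine-rich proteoglycans sit on the fibrils and set their diameter and spacing, elastic fibres give recoil, and matricellular proteins such as periostin and the thrombospondins carry signals between matrix and cells and are made in larger amounts in injured or pressure-loaded hearts. When fibroblasts are activated they add contractile proteins such as smooth muscle actin, and the balance of these groups is a common readout of cardiac remodelling in kidney disease.

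Libraries held between 19798965 and 65378162 counts. The library sham-Oxf replicate 1 was the shallowest and had a count for 15879 genes, against 27128 to 33995 genes in the other libraries. Sham-vehicle replicate 2, of similar depth (22299166 counts), had a count for 31238 genes. Sham-Oxf replicate 1 thus held few genes for its depth, and the reason was not tested. Cardiac muscle markers were high in every library, with 7 of them (among them Myh6, Actc1 and Ttn) summing to between 46117 and 94526 counts per 1000000 (CPM). CPM here and below use library totals over the genes tested, rescaled by edgeR's TMM factors. They are therefore not shares of a library's raw counts. A list of 8 fibroblast markers, of which Pdgfra, Dcn, Lum, Tcf21 and Ddr2 are among the 38 genes, summed to a median of 762, 720, 505 and 529 CPM. Where 4 group values stand together, here and below, their order is sham-vehicle, CKD-vehicle, sham-Oxf, CKD-Oxf. Markers of atrial muscle (Nppa, Sln, Myl7, Myl4 and Bmp10), which a ventricular sample should hold little of, ranged from 62.8 to 2775 CPM between libraries. Because whole tissue was sequenced, fewer fibroblasts and less RNA per fibroblast cannot be told apart in any value below.

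Per kilobase of exon, Gsn, the actin-severing protein gelsolin, was the most abundant of the 38 genes at 266 CPM per kilobase averaged over the libraries. Vim, the intermediate filament vimentin, followed at 42.9 and Acta2, smooth muscle actin, at 42.2 CPM per kilobase. At the other end, Tnc, the matricellular protein tenascin C, stood at 0.232 CPM per kilobase, Thbs4, thrombospondin 4, at 0.858, and Wif1, a secreted inhibitor of Wnt ligands, at 0.872. Tnc had no count in sham-Oxf replicate 1, which at that library's depth allows up to 0.152 CPM (3 counts, counting error only).

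The mean of log2 CPM over the 38 genes in the 4 groups was 5.08 ± 0.348 (mean ± SD over 10 libraries), 4.94 ± 0.278 (6 libraries), 4.72 ± 0.243 (5) and 4.64 ± 0.173 (7). The 4 groups overlap, since the libraries run from 4.46 to 5.70 in sham-vehicle and from 4.48 to 4.96 in CKD-Oxf. The same mean over all genes tested was 1.82, 1.77, 1.57 and 1.76, the sham-Oxf value being 1.83 without replicate 1, whose own mean was 0.54; the sham-Oxf mean over the 38 genes was 4.74 without it. The median within-group SD of log2 CPM was 0.465 over the 38 genes. It was 0.354 over the 14770 genes, the 38 included, between their lowest and highest mean level, and 0.549 over all genes tested. That range is wide, and genes were not matched one by one for abundance. Tnc (SD 1.15), Wif1 (0.999) and Cilp (0.669), the cartilage intermediate layer protein, varied most. Ddr2, a collagen-binding receptor kinase (0.196), Pcolce, the enhancer of procollagen C-proteinase (0.255), and Pdgfra, the platelet-derived growth factor receptor alpha (0.28), varied least.

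Part of that spread was common to many genes of a library. In sham-vehicle replicate 1, 36 of the 38 genes lay above their group mean, with a median deviation of 0.58 on the log2 scale, while in sham-vehicle replicate 9, 36 lay below theirs, by a median of 0.60. CKD-vehicle replicate 3 had 34 genes above its group mean, sham-Oxf replicate 3 had 34 and CKD-Oxf replicate 4 had 30. In the heat map, sham-vehicle replicate 1 is therefore a red column down most roles. Sham-Oxf replicate 1, the library with the fewest genes detected, had 19 of the 38 genes above and 19 below its group mean.

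**Figure D1:**
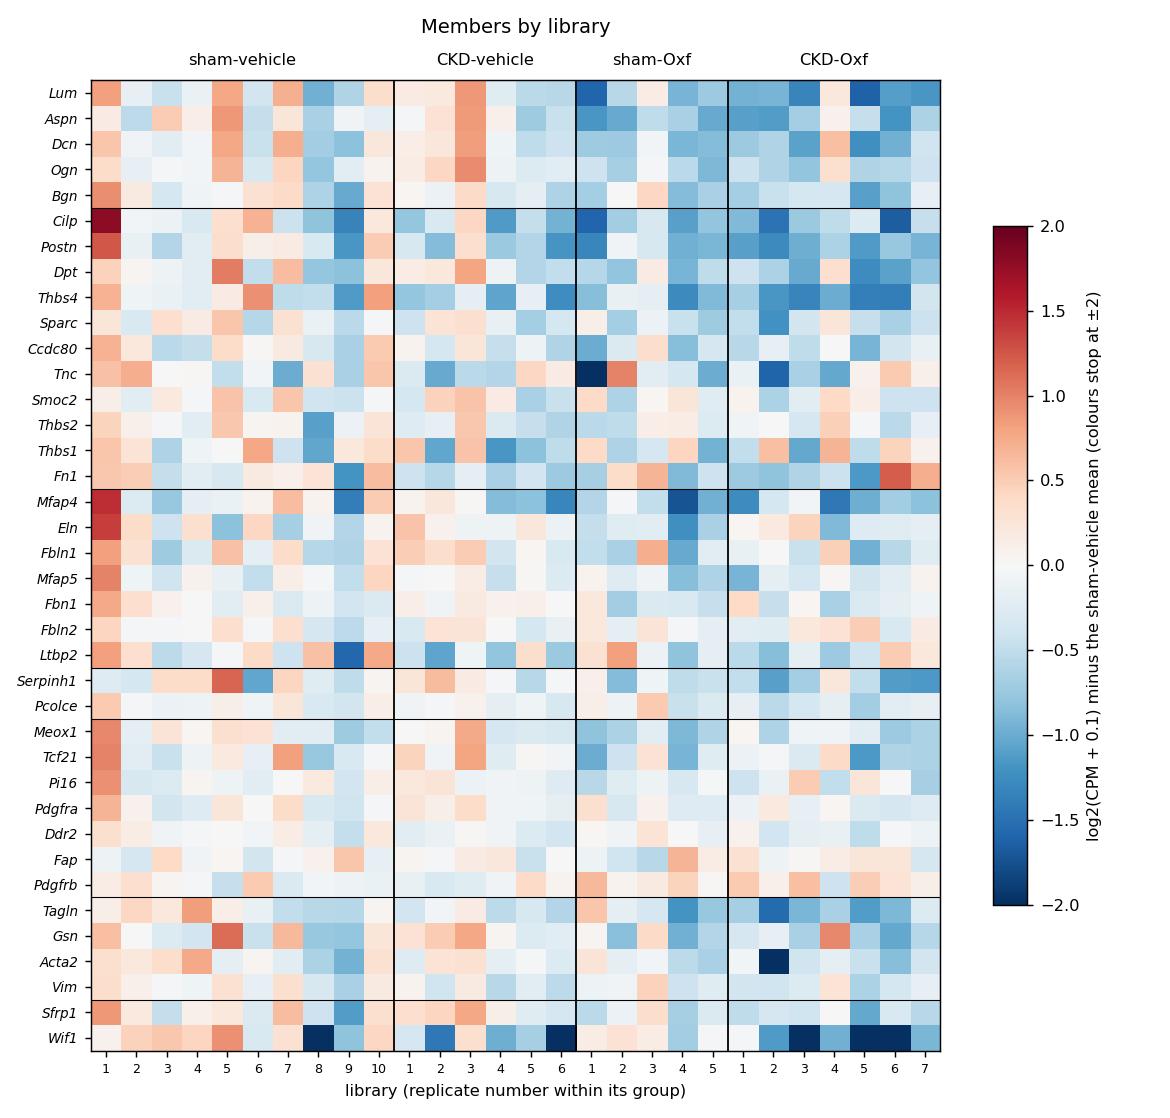
Level of each of the 38 genes in each of the 28 libraries, as log2(CPM + 0.1) minus the sham-vehicle mean of that gene; columns are libraries in their 4 groups, lines separate the roles, and colours stop at ±2. Sham-vehicle replicate 1 had 36 of 38 genes above its group mean, and the 5 proteoglycan genes at the top are mostly blue in both Oxf groups, CKD-Oxf replicate 4 being the library of its group where Lum, Dcn and Ogn lie above the sham-vehicle mean.

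Which genes moved with the bacterium was asked across both kinds of surgery, as the mean of the Oxf-minus-vehicle difference in sham and in CKD mice. Aspn, Ogn and Lum fell, by 1.80-fold, 1.49-fold and 1.80-fold. All are small leucine-rich proteoglycans: asporin (Aspn) binds collagen and transforming growth factor beta, osteoglycin (Ogn) takes part in collagen fibril assembly, and lumican (Lum) sets fibril spacing. These 3 of 38 genes (7.89%) passed an adjusted p of 0.05 in edgeR's quasi-likelihood test with Benjamini-Hochberg adjustment, all lower, where 681 of all 24273 genes passed (2.81%, split into 1.54% lower and 1.26% higher). At an unadjusted p of 0.05, 19 of the 38 were lower and 1 higher, beside 23% of all genes, 11.5% lower and 11.5% higher. The median log2 difference was -0.36 over the 38 genes and 0.00 over all genes, and 31 of the 38 (81.6%) were below 0, against 49.6% of all genes. The list was chosen with earlier results of these data known, and many of its genes shift together in single libraries. These counts therefore describe the list and are not a test of it.

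Aspn and Ogn lie 40.5 kilobases apart on the plus strand of chromosome 13 in a run of 4 leucine-rich repeat genes, whose 250 bases before the RefSeq start site (build GRCm38.p6) are shown because the 4 genes stand side by side and their levels are compared next. In order along the chromosome they are Ecm2 (chr13:49504560-49504809), Aspn (chr13:49544193-49544442), Omd (chr13:49582212-49582461) and Ogn (chr13:49607765-49608014). Capitals mark TTATGTAA, the D-box letters that clock-driven PAR bZIP factors such as DBP recognise.
Ecm2: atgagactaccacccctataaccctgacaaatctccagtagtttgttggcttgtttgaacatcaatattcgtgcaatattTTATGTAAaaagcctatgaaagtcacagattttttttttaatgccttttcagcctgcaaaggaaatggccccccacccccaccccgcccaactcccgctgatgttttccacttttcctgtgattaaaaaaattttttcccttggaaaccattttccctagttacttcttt
Aspn: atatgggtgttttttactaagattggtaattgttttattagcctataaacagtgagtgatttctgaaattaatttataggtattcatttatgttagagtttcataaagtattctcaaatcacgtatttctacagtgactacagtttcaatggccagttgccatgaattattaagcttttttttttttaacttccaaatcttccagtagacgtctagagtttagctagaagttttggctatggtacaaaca
Omd: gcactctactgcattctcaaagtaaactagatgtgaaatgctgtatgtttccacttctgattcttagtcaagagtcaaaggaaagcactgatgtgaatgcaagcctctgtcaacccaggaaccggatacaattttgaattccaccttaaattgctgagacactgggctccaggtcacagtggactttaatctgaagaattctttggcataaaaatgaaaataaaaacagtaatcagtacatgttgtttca
Ogn: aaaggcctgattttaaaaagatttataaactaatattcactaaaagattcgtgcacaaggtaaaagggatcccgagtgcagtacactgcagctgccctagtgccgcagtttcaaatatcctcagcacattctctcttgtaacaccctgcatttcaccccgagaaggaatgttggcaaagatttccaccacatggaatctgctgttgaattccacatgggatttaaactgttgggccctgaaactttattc

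Of these 4 windows only that of Ecm2 holds a D-box. RefSeq windows of 300 bases, from 250 before to 50 after the start, could be matched for 24 of the 38 genes, and both strands were read for 5 motifs. Lum and Dcn were among the genes with no window. The E-box CACGTG was in at least 1 window of 2 of the 24 genes (8.33%), Fbln1 and Wif1, and in 7.15% of all 32851 windows. A gene can have more than 1 window, so shares of genes and shares of windows are not the same measure. The D-box TTATGTAA (0.938% of all windows), the AP-1 letters TGANTCA (7.81%), the SMAD element GTCTAGAC (0.213%) and the CArG box (1.63%) were in 0 of the 24. These are matches of letters and say nothing of binding.

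In the annotation (GENCODE M21, GRCm38) Aspn spans chr13:49544443-49567565 and Ogn chr13:49608046-49624501, both within the span of Cenpp, a centromere protein gene on the minus strand. Aspn shares 7 exonic bases with Cenpp and Ogn shares 0. Cenpp itself had a log2 difference of -0.17 ± 0.17 (SE; edgeR adjusted p = 0.580). Ecm2, at -0.39 ± 0.13 (edgeR adjusted p = 0.0740), and Omd, osteomodulin, at -0.62 ± 0.28 (0.177), did not pass, nor did the flanking genes Ippk (0.06) and Nol8 (-0.05).

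Aspn, in CPM, read 5.93, 6.66, 9.49, 8.59 and 6.66 in the 5 sham-Oxf libraries. In sham-vehicle its lowest, median and highest values were 8.54, 13.8 and 24.6 CPM, in CKD-vehicle 8.17, 13.8 and 24.3, and in CKD-Oxf 5.85, 8.33 and 14.3. The Oxf groups lie low and overlap the vehicle groups: 11 of the 12 Oxf libraries were below the vehicle median of the same surgery, the exception being CKD-Oxf replicate 4. The averaged difference was -0.84 ± 0.18 on the log2 scale (SE; edgeR adjusted p = 0.0183). Within sham mice it was -0.92 ± 0.26 and within CKD mice -0.77 ± 0.25, with edgeR adjusted p of 0.168 and 0.230.

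Lum, on chromosome 10 (chr10:97565128-97572703), read 8.49, 17.4, 28.4, 13.4 and 15.4 CPM in sham-Oxf. Sham-vehicle ran from 13.1 over a median of 23.1 to 45.4 CPM, CKD-vehicle from 17.5 over 25.2 to 46.8, and CKD-Oxf from 8.28 over 11.9 to 29.7. In each Oxf group 1 library, sham-Oxf replicate 3 and CKD-Oxf replicate 4, lay above the vehicle median, so 10 of 12 were below it. The averaged log2 difference was -0.85 ± 0.23 (edgeR adjusted p = 0.0435), made of -0.75 in sham and -0.94 in CKD mice.

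Ogn read 33.7, 28.5, 44.2, 30.9 and 24.1 CPM in sham-Oxf. It ran from 26.4 over 43.9 to 72.5 CPM in sham-vehicle, from 37.3 over 46.1 to 87.2 in CKD-vehicle and from 26.1 over 30.3 to 56.4 in CKD-Oxf. The same pair of libraries stood above the vehicle medians and the groups overlap. The averaged log2 difference was -0.58 ± 0.15 (edgeR adjusted p = 0.0421), with -0.54 in sham and -0.62 in CKD mice.

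The other proteoglycans of the list lay in the same direction without passing. Dcn, decorin, which lies 47 kilobases from Lum on the same strand (chr10:97479609-97518143), averaged 241 ± 93.3, 242 ± 88.2, 146 ± 40.1 and 159 ± 83.9 CPM, a log2 difference of -0.66 ± 0.20 (edgeR adjusted p = 0.0632). Bgn, biglycan, averaged 195 ± 72.2, 171 ± 40.4, 152 ± 61.1 and 127 ± 26.7 CPM, a difference of -0.39 ± 0.17 (edgeR adjusted p = 0.164). The mean log2 CPM of the 5 proteoglycan genes was 5.85 ± 0.461 in sham-vehicle and 5.86 ± 0.462 in CKD-vehicle, and 5.23 ± 0.367 in sham-Oxf and 5.19 ± 0.398 in CKD-Oxf.

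**Figure D2:**
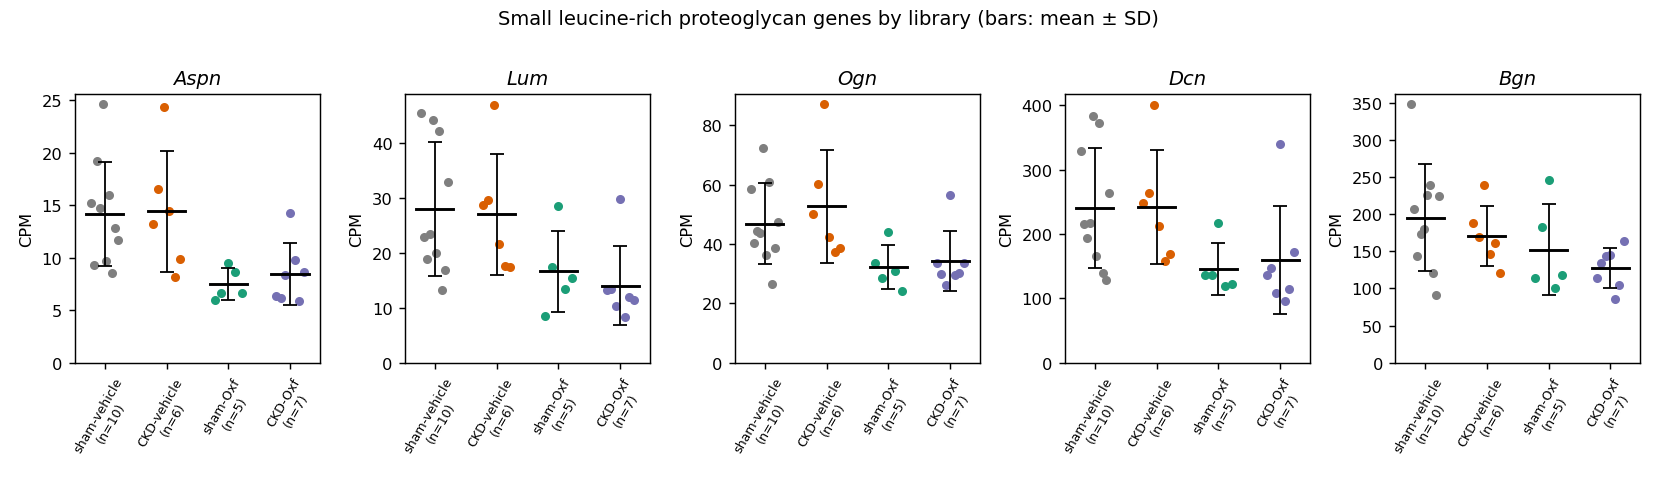
CPM of the 5 small leucine-rich proteoglycan genes in each library (points, coloured by group), with the group mean (bar) and SD (whiskers); axes start at 0. For Aspn the sham-Oxf libraries lie between 5.93 and 9.49 CPM and the sham-vehicle libraries between 8.54 and 24.6, and the highest CKD-Oxf point in the Aspn, Lum, Ogn and Dcn panels is replicate 4.

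The calls on Lum and Ogn depended on single libraries. Aspn passed in 28 of the 28 fits that left out 1 library, with edgeR adjusted p from 0.00252 to 0.0438, whereas Lum passed in 8 and Ogn in 10. The count of 3 was also found without sham-vehicle replicate 2, sham-vehicle replicate 8, CKD-vehicle replicate 6 or sham-Oxf replicate 1 (there Aspn, Ogn and Tagln). It was 2 without CKD-Oxf replicate 7, 5 without sham-vehicle replicate 6, 6 without sham-vehicle replicate 9 or sham-Oxf replicate 3, 8 without CKD-vehicle replicate 5, 12 without CKD-Oxf replicate 4, and 1 (Aspn) without any of the other 18 libraries. Calls over all genes moved with these counts: they made up 0.449% to 2.05% of the genes tested in the 18 fits with 1 of the 38 genes, 7.83% in the fit with 8 and 13.9% in the fit with 12. DESeq2 called 9 of the 38 genes (23.7%) and 8.79% of all genes, and limma with sample weights called 14 (36.8%), of which 13 were lower, and 22% of all genes.

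RNA features that differ between libraries differed with the gavage and also with surgery. A clock score, the mean log2 CPM of 10 clock output genes such as Dbp and Per2 minus that of 5 clock genes such as Arntl and Npas2, had group means of 2.05 ± 1.02, 0.622 ± 0.957, 3.67 ± 0.505 and 3.09 ± 0.547. Its ranges in CKD-vehicle (up to 1.84) and CKD-Oxf (from 1.95) do not meet. In CKD mice the bacterium and the clock score therefore cannot be told apart. In sham mice the ranges overlap (0.618 to 3.74 and 2.80 to 4.09). Within sham-vehicle the score was 0.618 in mouse 901, 1.87 in mouse 905 and 3.31 in mouse 910. In CKD-vehicle it was -0.318 in mouse 913 and 1.46 in mouse 920. The mouse numbers of each group form 1 block, and the part of that order was not tested. With the score as a covariate, 0 of the 38 genes and 0 of all genes passed, Aspn had a log2 difference of -0.46 (edgeR adjusted p = 0.792), Lum -0.35 (0.862) and Ogn -0.16 (0.902), and 13 rather than 31 of the 38 genes were below 0. In the vehicle comparison of CKD with sham mice the same covariate took the genes below 0 from 29 to 37. Without it 55.6% of all genes were below 0 in that comparison. The shares of all genes below 0 with the covariate are not given here. Within the 10 sham-vehicle libraries the score and Aspn had a Pearson r of -0.252 (permutation p = 0.478, 3 relations computed, adjusted p = 0.478) and a Spearman rho of -0.152 (permutation p = 0.683), Lum an r of -0.365 (permutation p = 0.294; rho -0.382, permutation p = 0.277) and Ogn an r of -0.348 (permutation p = 0.325; rho -0.164, permutation p = 0.656), with adjusted p of 0.478 for r and 0.683 for rho throughout. Without the 2 libraries farthest from the median score, r was -0.231, -0.420 and -0.409.

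**Figure D3:**
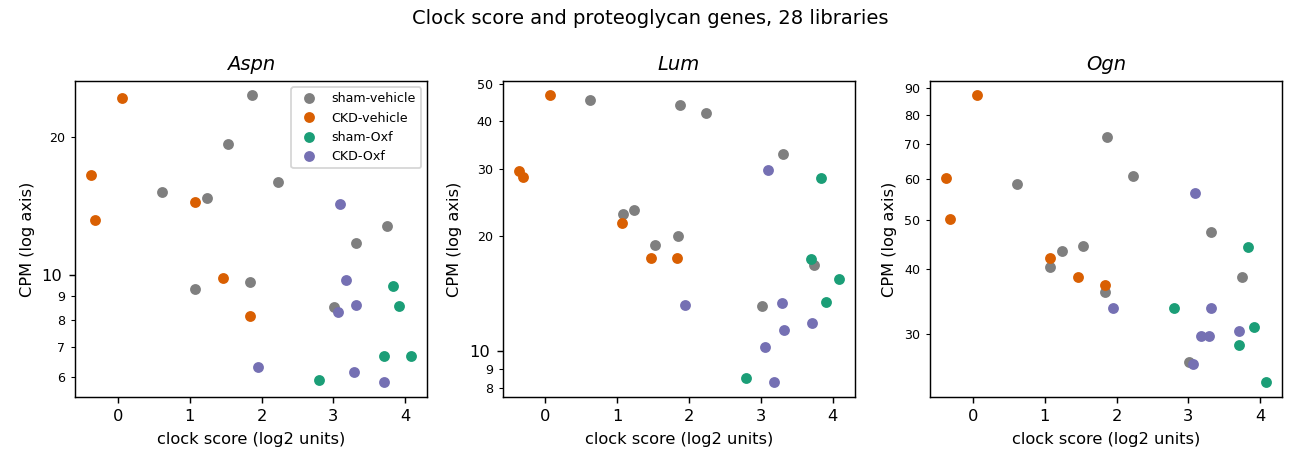
CPM of Aspn, Lum and Ogn (vertical log axis) against the clock score (horizontal, log2 units) in the 28 libraries, coloured by group. The Oxf libraries lie to the right, with group means of 3.67 and 3.09, and the CKD-vehicle libraries to the left, at a mean of 0.622.

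The share of all counts on 7SL RNA (Rn7s1 and Rn7s2), a small cytoplasmic RNA, averaged 9.78%, 13.6%, 4.14% and 8.81%, with a range of 1.83% to 21.0% over libraries. With its log2 as a covariate 0 of the 38 genes passed, and Aspn had -0.51 (edgeR adjusted p = 0.139), Lum -0.65 (0.190) and Ogn -0.39 (0.211). Atrial markers summed to a median of 1310, 2145, 907 and 1238 CPM, with 0 of 5 passing, and those of skeletal muscle to 243, 351, 218 and 259 CPM, with 0 of the 6 tested passing; liver markers summed to 5.27, 0.886, 9.86 and 4.67 CPM, and 2 of 4 were higher. None of these markers was at 0 in every library of a group. The mean log2 CPM of the skeletal muscle markers was 6.41 in sham-vehicle replicate 6 and 6.08 in CKD-vehicle replicate 1. It was at most 2.62 in the other libraries, and the median log2 difference of the tested skeletal muscle markers was -2.45. Sham-Oxf replicate 3 and CKD-Oxf replicate 4 had the highest mean log2 CPM of the atrial markers in their groups, 8.20 and 8.15. They also had the highest proteoglycan score there, 5.85 and 6.03. In sham-vehicle, replicates 7, 1 and 5 were highest in atrial markers (8.72, 8.62 and 8.39) and also in proteoglycans (6.35, 6.42 and 6.47). Replicate 4, lowest there in atrial markers (4.70), had a proteoglycan score of 5.82. In CKD-vehicle, replicate 3 was highest in proteoglycans (6.63) and next to highest in atrial markers (8.32). Replicate 2, lowest there in atrial markers (6.93), was next to highest in proteoglycans (6.06). The averaged Oxf-minus-vehicle difference of the atrial score was -1.17. The part of atrial, skeletal muscle and liver markers in these results was not tested. Of the 7 cardiac muscle markers 1 was lower, Tnni3, cardiac troponin I, at a log2 difference of -0.72 (edgeR adjusted p = 0.0447), and their median difference was -0.17. With the smooth muscle marker score as a covariate 6 of the 38 genes (15.8%) passed, Aspn, Lum, Ogn, Dcn, Dpt and Serpinh1, beside 11.5% of all genes. That score was 3.43 in sham-Oxf replicate 1 and at least 4.67 in the other libraries. The summed CPM of the same markers ran from 539 to 664 in sham-Oxf. The covariate therefore in part sets 1 library apart and is not a plain measure of smooth muscle content.

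Beyond the proteoglycans no gene of the list passed for the bacterium. Among the adhesive and matricellular proteins, 0 of 11 passed and 9 were below 0. Postn, periostin, which links collagen and cells in healing tissue, averaged 39.3 ± 19.1, 25.7 ± 10.5, 22.9 ± 8.17 and 18.4 ± 2.89 CPM. Its averaged log2 difference was -0.63 ± 0.20 (edgeR adjusted p = 0.0651). Dpt, dermatopontin, a decorin-binding protein, had -0.63 ± 0.20 (0.0721), from group means of 51.4, 49.9, 34.2 and 31.3 CPM. Cilp, which binds transforming growth factor beta, had -0.72 ± 0.26 (0.0976). With the clock score as a covariate the sign of Cilp turned to 0.21.

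Of the fibroblast identity genes and receptors 0 of 7 passed. Meox1, a homeobox factor switched on in activated cardiac fibroblasts, averaged 11.1 ± 4.02, 10.8 ± 3.65, 6.86 ± 1.34 and 8.50 ± 1.83 CPM. Its log2 difference was -0.52 ± 0.16 (edgeR adjusted p = 0.0621), and 0.23 with the clock score as a covariate. Tcf21, a transcription factor of resting fibroblasts, had -0.48 (edgeR adjusted p = 0.144), Pdgfra -0.16 and Pi16, a marker of adventitial fibroblasts, -0.18. Pdgfrb, the receptor that marks pericytes as well as fibroblasts, was the gene with the highest value, 0.29 ± 0.11 (edgeR adjusted p = 0.130), at 86.0 and 82.5 CPM under vehicle and 103 and 102 under Oxf. Ddr2 and Fap, a fibroblast surface protease, were at 0.00 and 0.04.

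The pair of collagen-processing genes differed from each other in size. Serpinh1, the collagen chaperone HSP47, averaged 103 ± 46.8 and 102 ± 27.2 CPM in the vehicle groups of sham and CKD mice, and 75.4 ± 19.4 and 61.9 ± 24.1 in the Oxf groups, a difference of -0.58 ± 0.19 (edgeR adjusted p = 0.0764). Pcolce had -0.13. Among elastic fibre genes, 0 of 7 passed: Mfap4, a microfibril glycoprotein, had -0.63 (edgeR adjusted p = 0.125), Eln, elastin itself, -0.43 (0.171) and Fbn1, fibrillin 1, -0.27 (0.182), where Fbn1 shares 20.1% of its exonic bases with Gm9913 on the other strand. Fbln1 and Mfap5 had -0.33 and -0.28, and Fbln2 and Ltbp2, a latent transforming growth factor beta binding protein, 0.05 and 0.06.

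Among the contractile and cytoskeletal genes 0 of 4 passed. Tagln, transgelin, had -0.45 (edgeR adjusted p = 0.130), Gsn -0.43 (0.249), Acta2 -0.39 (0.181) and Vim -0.05. Strand use in counting is not given in the sources used here, and 67.9% of the exonic bases of Tagln are shared with genes on the other strand, among them Pcsk7, so its counts are uncertain. Of the Wnt antagonists, Sfrp1, a secreted frizzled-related protein, had -0.48 (edgeR adjusted p = 0.0998) and Wif1 -0.40. Thbs4, thrombospondin 4, had -0.56 ± 0.21 (edgeR adjusted p = 0.119). The remaining adhesive genes Sparc (-0.34), Ccdc80 (-0.30), Tnc (-0.17), Smoc2 (-0.09), Thbs2 (-0.07), Thbs1 (0.05) and Fn1, fibronectin (0.17), had edgeR adjusted p of 0.165 or more.

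**Figure D4:**
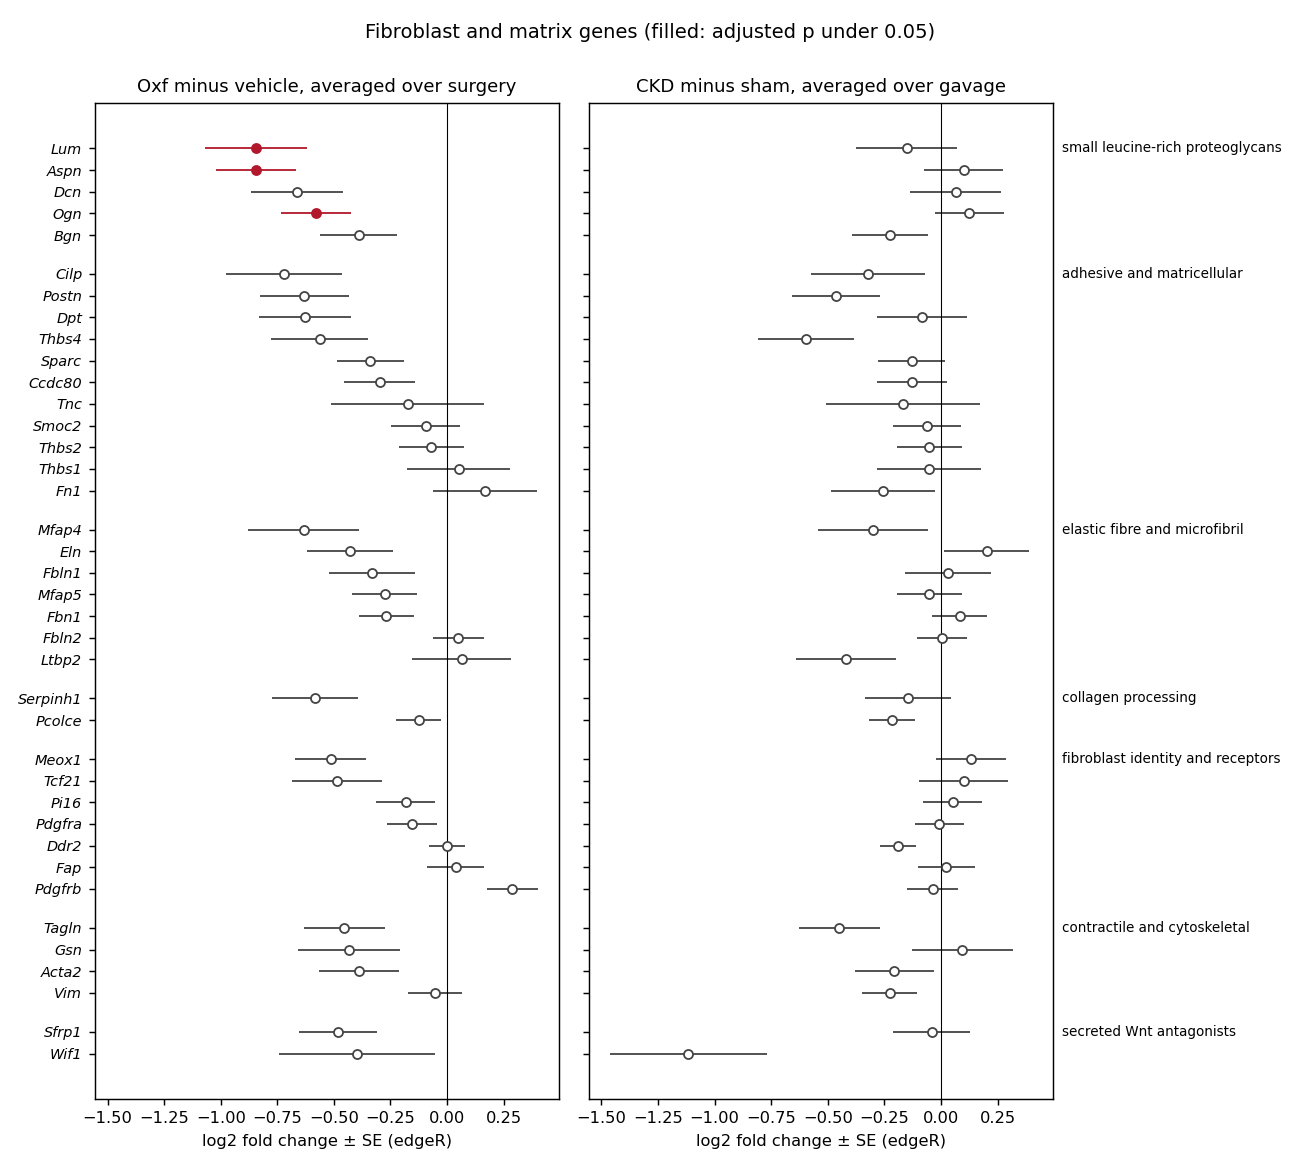
Log2 difference (point) and SE (line) of each of the 38 genes for the bacterium, averaged over surgery (left), and for nephrectomy, averaged over gavage (right), grouped by role on 1 common axis. Aspn, Lum and Ogn, filled, passed in the left panel, where 31 of 38 points are below 0, and none passed in the right panel, where Wif1 is lowest at -1.12.

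A list of 53 other genes of the cardiac interstitium, of which 52 could be tested, had 2 calls in the same comparison (3.85%). Vcan, the large proteoglycan versican, fell, with a log2 difference of -0.50 (adjusted p = 0.0489 in edgeR; 12 of 12 Oxf libraries below the vehicle median), and Tnxb, tenascin XB, rose, with 0.36 (0.0386). The median difference of the 52 was -0.07, and 57.7% were below 0.

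Split by surgery, the comparisons asked whether colonization altered the genes in CKD mice and in sham mice. In CKD mice 0 of the 38 genes passed, where 0.033% of all genes did (0.00824% lower, 0.0247% higher), and 9 had an unadjusted p under 0.05, all lower (13.1% of all genes, 6.2% lower and 6.89% higher). Aspn had the smallest p, followed by Lum, Ogn, Sfrp1 (-0.66 ± 0.24), Serpinh1 (-0.72 ± 0.27) and Dpt (-0.67 ± 0.28), with edgeR adjusted p between 0.230 and 0.329. For Sfrp1, all 7 CKD-Oxf libraries were below the CKD-vehicle median, at group means of 8.41 ± 1.74 and 13.3 ± 3.92 CPM. Without CKD-Oxf replicate 4, 5 of the 38 genes (13.2%) passed, Aspn, Dcn, Lum, Ogn and Serpinh1, beside 3.83% of all genes. limma with sample weights called 7 (18.4%), adding Dpt and Pdgfrb, the latter higher, beside 15% of all genes. Sfrp1 and Dpt had log2 differences of 0.00 and 0.05 in CKD mice once the clock score was a covariate.

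In sham mice 0 of 38 genes passed, as did 0% of all genes, and 10 had an unadjusted p under 0.05, all lower (12.6% of all genes, 5.98% lower and 6.6% higher). They were led by Aspn, Meox1 (-0.69 ± 0.22), Cilp (-1.10 ± 0.37), Postn (-0.78 ± 0.28), Dcn (-0.72 ± 0.29) and Thbs4 (-0.76 ± 0.31), with edgeR adjusted p from 0.168 to 0.306. For each of the 5 mice given Oxf after sham surgery, values under the sham-vehicle median were read for Aspn, Meox1, Cilp, Postn and Thbs4. DESeq2 called Aspn there (adjusted p = 0.0444), with 0.54% of all genes. Whether the bacterium acted differently in CKD and sham mice was tested by the interaction, where 0 of 38 genes passed (0% of all genes), 0 had an unadjusted p under 0.05 (3.55% of all genes, 2.07% lower and 1.48% higher), and the smallest p was that of Cilp, 0.75 ± 0.51 (edgeR p = 0.149 unadjusted, adjusted p = 1.00).

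Cilp read 4.46, 8.33, 10.8, 6.30 and 7.76 CPM in sham-Oxf. Its lowest, median and highest values were 5.33, 12.7 and 47.1 CPM in sham-vehicle, 6.12, 8.76 and 18.2 in CKD-vehicle, and 4.25, 8.01 and 11.2 in CKD-Oxf. The value of 47.1 is that of sham-vehicle replicate 1, and the other 3 groups lie within the range of sham-vehicle or just under it. Without that library the CKD-vehicle minus sham-vehicle difference of Cilp was -0.35 in place of -0.70, and the sham-Oxf minus sham-vehicle difference -0.75 in place of -1.10.

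The surgery comparisons asked what nephrectomy did to the same genes. Under vehicle 0 of 38 passed, where 0.00824% of all genes did, and the 3 with an unadjusted p under 0.05, all lower (4.46% of all genes, 2.37% lower and 2.09% higher), were Thbs4, Postn (-0.61 ± 0.26) and Cilp (-0.70 ± 0.34), each at an edgeR adjusted p of 0.955. Under Oxf 0 passed, as did 0% of all genes, and the 3 at an unadjusted p under 0.05, all lower (8.23% of all genes, 5.22% lower and 3% higher), were Wif1, Tagln (-0.57 ± 0.27) and Pcolce (-0.32 ± 0.15), with edgeR adjusted p of 0.428, 0.572 and 0.583. Averaged over gavage 0 passed (0% of all genes), 6 were lower at an unadjusted p under 0.05 (10.6% of all genes, 5.45% lower and 5.17% higher) and the median of the 38 was -0.07. DESeq2 and limma called 0 in these 3 comparisons as well. Without sham-Oxf replicate 1 the Tagln difference was -0.26 under Oxf and -0.30 averaged over gavage. Without sham-Oxf replicate 3 that of Pcolce was -0.17 under Oxf and -0.16 averaged. For Wif1 under Oxf the fits without 1 library ran from -1.75 to -1.15.

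Wif1 read 2.89, 3.17, 2.90, 1.57 and 2.52 CPM in sham-Oxf. In CKD-Oxf its lowest, median and highest values were 0.14, 1.13 and 2.54 CPM, in CKD-vehicle 0.46, 1.43 and 3.27, and in sham-vehicle 0.56, 3.36 and 4.97. All 13 CKD libraries were below the sham median of the same gavage, although the groups overlap. The log2 difference averaged over gavage was -1.12 ± 0.35 (edgeR adjusted p = 0.283), with -0.89 ± 0.47 under vehicle and -1.34 ± 0.51 under Oxf. The gene is rare, with 5 to 193 counts per library.

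Thbs4, which rises in pressure-loaded hearts, read 1.99, 3.31, 3.22, 1.46 and 1.95 CPM in sham-Oxf. It ran from 1.63 over a median of 3.39 to 6.99 CPM in sham-vehicle, from 1.50 over 2.18 to 3.27 in CKD-vehicle and from 1.35 over 1.59 to 2.83 in CKD-Oxf. All 6 CKD-vehicle libraries were below the sham-vehicle median, and the groups overlap. The difference was -0.79 ± 0.29 under vehicle (edgeR adjusted p = 0.955) and -0.60 ± 0.21 averaged over gavage (0.335). Tagln (-0.45 ± 0.18), Postn (-0.46 ± 0.19), Ddr2 (-0.19 ± 0.08) and Pcolce (-0.22 ± 0.10) completed the 6 genes, with edgeR adjusted p from 0.378 to 0.451. The proteoglycans that were lower under Oxf had averaged surgery differences of 0.10 (Aspn), 0.13 (Ogn) and -0.15 (Lum).

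**Figure D5:**
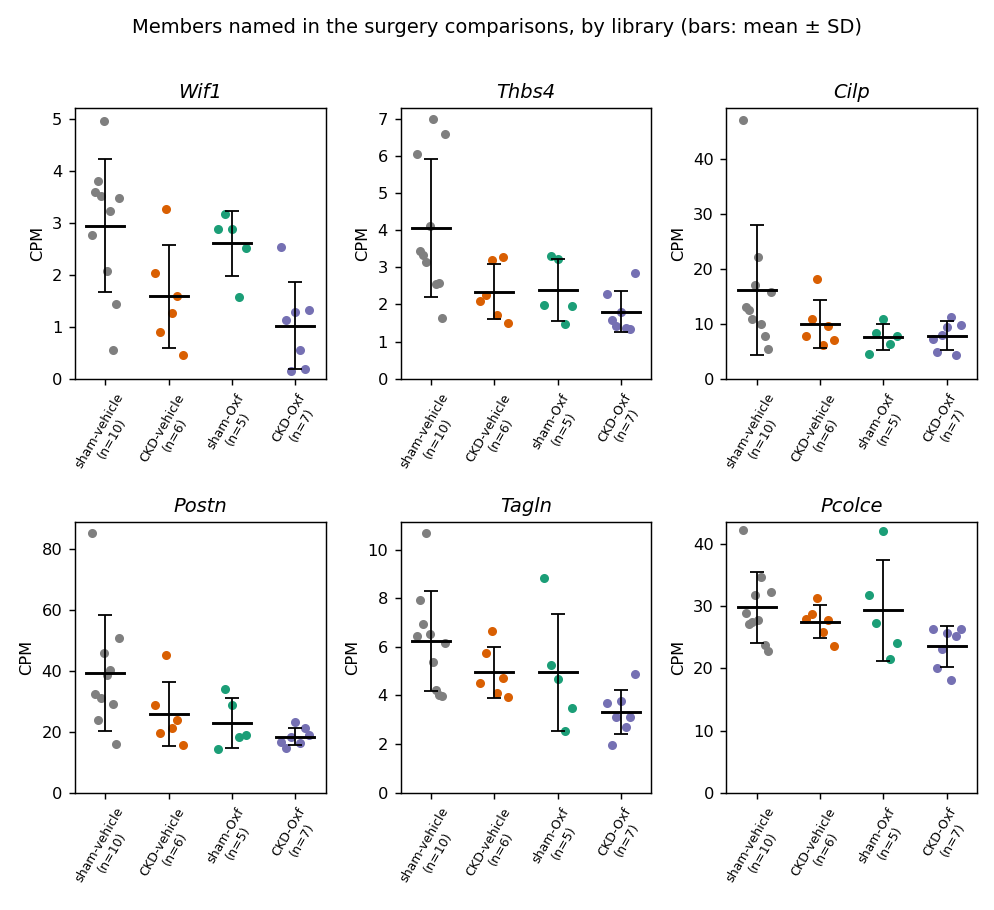
CPM of Wif1, Thbs4, Cilp, Postn, Tagln and Pcolce in each library (points, coloured by group) with the group mean (bar) and SD (whiskers); axes start at 0. CKD-Oxf libraries are low in the Wif1 panel, between 0.14 and 2.54 CPM, and the single high sham-vehicle point at 47.1 CPM in the Cilp panel is replicate 1.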

How the data were processed

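RNA from ventricular myocardium was sequenced in 28 mice. The authors deposited 1 table of raw read counts per gene, whose unit the whole numbers and unequal library totals bear out. Per the submitters' processing notes the tools were FastQC 0.11.7, MultiQC 1.9, STAR 2.6.1d and featureCounts 1.6.3 with build mm10; strand use is not given in the sources used here. Each library is 1 mouse, so the tests set group differences against the spread between mice, differences between their libraries included. The labels do not say at what hour tissue was taken.

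All 28 libraries entered 1 fit of 4 group means in edgeR 4.0.16 (R 4.3.3): TMM scaling, filterByExpr with a minimum count of 10 (24273 of 45513 genes), robust dispersion, quasi-likelihood F tests and Benjamini-Hochberg adjustment over all genes tested, threshold 0.05, for 7 contrasts. CPM use TMM-scaled library totals, and scores are means of log2 CPM with a prior count of 2. Alternatives used DESeq2 1.42.0, limma 3.58.1, other scalings, filters and covariates, and left out each library in turn. The edgeR procedure was also run on counts simulated from its own fitted model, each gene drawn independently. That run does not cover spread shared by many genes of a library. Lengths and positions come from GENCODE M21, and 45465 of the gene IDs matched it.

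Genes were named by rule: each of the 38 past the threshold, up to 6 others with the smallest unadjusted p under 0.05 (the smallest p where none), and the 3 extremes of level and spread. The remaining ones are given by value. The members and gene lists were chosen with earlier results of these data known.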

Additional observations from a re-analysis of the deposited data

Results flagged for a closer look

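Within groups of 5 to 10 libraries, the gap between the most extreme library and its nearest neighbour was divided by the whole range of the group, for the 38 genes and 8 scores over them, 184 comparisons in all. In 11 the gap exceeded the 95% critical value for the group size; chance flags about 1 in 20 groups, which here is 9.2. CKD-Oxf replicate 4 was the high library for Ogn (0.67), Lum (0.625) and the proteoglycan score (0.623). Sham-vehicle replicate 1 was high for Pi16, a peptidase inhibitor of adventitial fibroblasts (0.553), and for the fibroblast identity score (0.546). Sham-Oxf replicate 3 was high for Dcn (0.765), and CKD-vehicle replicate 3 for Meox1 (0.643). The low libraries were CKD-vehicle replicate 5 for Fap (0.626), CKD-Oxf replicate 2 for Acta2 (0.613), CKD-Oxf replicate 1 for Mfap5 (0.569) and sham-vehicle replicate 8 for Thbs2 (0.53).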

How the results depend on the processing

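For Oxf against vehicle averaged over surgery, the count of 38 genes passing was 3, and became 9 with DESeq2, 14 with limma and sample weights, 1 without a filter, 8 with at least 10 counts in every library, 0 with the clock score and 0 with the 7SL share as covariate, and 6 with the smooth muscle score; DESeq2 size factors and upper quartile scaling gave 3. The shares of all genes passing were 2.81%, then, in the order named, 8.79%, 22%, 0.366%, 10.1%, 0%, 0.544%, 11.5%, 3.15% and 3.3%. Without sham-Oxf replicate 1 and CKD-Oxf replicate 4 together, chosen after seeing the data, the count was 11 (19.1% of all genes). The filter of at least 10 counts in every library left Tnc and Wif1 untested, their lowest counts being 0 and 5. In the same order the 52 other matrix genes went from 2 to 4, 14, 0, 4, 0, 1, 10 and 13, and to 1 under both scalings. In CKD mice limma gave 7 and 8 for the 2 lists and leaving out both libraries 6 and 6 (15% and 8.86% of all genes); in sham mice DESeq2 gave 1 for the 38 genes.

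Leaving out 1 library gave 1 to 12 of the 38 genes (109 to 3362 of all genes) and 0 to 10 of the other matrix genes for the averaged bacterium comparison, 0 to 5 and 0 to 4 in CKD mice, and 0 in the other 5 comparisons. Among the genes named by rule for a comparison, signs turned with the clock score as covariate for Sfrp1 (0.00193) and Dpt (0.0539) in CKD mice and for Meox1 (0.235) and Cilp (0.211) averaged over surgery; the cause was not tested. Over all 38 genes that covariate took those below 0 from 31 to 13 averaged over surgery, from 31 to 7 in CKD and from 36 to 21 in sham mice. The other settings gave 30 to 33, 29 to 32 and 32 to 37. Without that covariate 49.6%, 46.8% and 54.9% of all genes were below 0 in these comparisons. The shares of all genes with it are not given here. No paired analysis was possible because the mouse numbers are not shared between groups. With 5 to 10 libraries a group and 19798965 counts in the shallowest, smaller differences in rare genes such as Wif1 and Tnc were not detectable.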
